A study of Mus musculus with 4 samples.

Results

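The grainyhead factors and the epithelial junction genes studied here are 10 genes, chosen by name after earlier results of this BMP6 comparison were known: Grhl1, Grhl2 and Grhl3, the claudins Cldn1, Cldn4, Cldn6, Cldn9 and Cldn12, and the adhesion genes Cdh1 and Epcam. Each was found once among the 55267 entries of the joined expression table, in an entry that holds no other gene name. RNA-seq was run on muscle stem cells (MuSCs) cultured from 9-week-old female C57BL/6N(Tg(Pax7-EGFP)Tajb) mice, in which a transgene with the Pax7 promoter marks MuSCs with a green fluorescent protein used for sorting. All cells spent 6 h without serum with 200 ng/mL of BMPR-1A-Fc, a soluble receptor that binds BMPs, and were then exposed for 1 h to 100 ng/mL of the bone morphogenetic protein BMP6 or to its vehicle (4 mM HCl, 0.1% BSA). There were 2 BMP6 libraries and 2 control libraries, and replicate numbers 1 and 2 each name a batch that holds 1 library of either group. The sorted cells were grown in culture at 3% oxygen before treatment, so they are not the resting MuSCs of intact muscle.

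Grainyhead-like factors are transcription factors of surface epithelia that switch on junction and barrier genes, and GRHL1 is best known from the desmosomes of skin and hair follicle. Claudins are the membrane proteins that form the strands of tight junctions, and each epithelium has its own mixture of them. E-cadherin, encoded by Cdh1, and EpCAM, encoded by Epcam, are adhesion molecules of epithelial cells. MuSCs form no epithelium, and their adhesion rests on other cadherins, among them M-cadherin.

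Library depth was even, with 108.1 to 112.0 reads (in units of 1000000) rebuilt from the deposited coverage, and between 13002 and 13203 entries of a library had a TPM (transcripts per 1000000, a level that accounts for transcript length) of 1 or more. The label of the treatment was checked on Id1, a classical BMP target, which lay at 584 and 513 TPM after BMP6 and at 90.5 and 129 TPM in controls. The myogenic identity was checked on 8 markers, all of which were expressed. Their summed level was 8429 and 8669 TPM after BMP6 and 8783 and 9405 TPM in controls, and it was led by Myog, the regulator of terminal differentiation. Myog lay between 4400 and 5472 TPM across these libraries, and Pax7, the gene whose promoter drives the sorting marker, between 8.29 and 11.7 TPM. Of 21 epithelial markers, 19 stayed under 1 TPM in every library and 4 of them, including Krt5 and Krt15, were listed at 0 throughout. Krt19 (1.7 to 2.03 TPM) and Spint2 (1.33 to 2.03 TPM) were above 1 TPM in every library. The summed level of the epithelial markers was 5.11 and 4.99 TPM after BMP6 and 5.12 and 5.22 TPM in controls. The label epithelial thus describes where these genes are known from. Whether some epithelial cells were present was not tested.

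Only Grhl1 and Cldn9 of the 10 genes passed both thresholds of the comparison, and both were higher after BMP6. The call asked for a change of 2-fold or more in either direction (a fold of 2 up or 0.5 down) in log2(TPM + 1) and for an adjusted p below 0.1 in limma, with Benjamini-Hochberg adjustment over every entry whose TPM averaged 1 or more. The 10 genes split into 5 with a mean TPM of at least 1 (Grhl1, Grhl3, Cldn4, Cldn9 and Cldn12) and 5 below it, which were not tested (Grhl2, Cldn1, Cldn6, Cdh1 and Epcam). Among the 10645 tested entries not left out by a rule on gene names, 24 (0.225%) were called higher and 0 (0%) lower. Past the adjusted p without regard to fold were 28 higher (0.263%) and 1 lower (0.00939%). Neither gene was called with a pseudocount of 0.1 or 5, without a filter on low values, without a mean-variance trend, with an adjusted p under 0.05 or in voom on rebuilt reads without a block. Since the 10 genes were selected on this same contrast, their values are a description, no p is given for them, and nothing is read from the share of them called. Fewer expressing cells and less RNA per cell cannot be told apart in these bulk libraries.

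**Figure D1:**
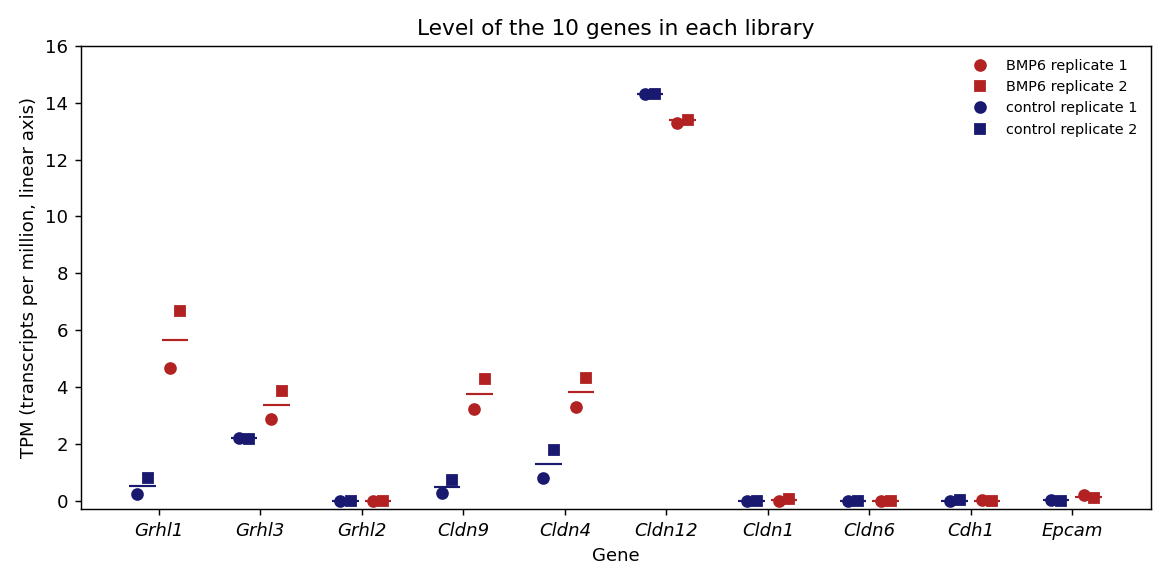
Level of each gene in TPM on a linear axis, with 1 point per library (circles replicate 1, squares replicate 2), controls in dark blue, BMP6 in red and a line at each group mean. Grhl1, Cldn9 and Cldn4 sit higher in both BMP6 libraries, Cldn12 stays between 13.3 and 14.3 TPM, and Grhl2, Cldn1, Cldn6, Cdh1 and Epcam lie at or near 0.

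Grhl1 (chromosome 12, 24622282 to 24667390, plus strand, GRCm39) had 4.68 and 6.67 TPM in BMP6 replicates 1 and 2 and 0.223 and 0.805 TPM in control replicates 1 and 2. Both BMP6 libraries lay above both controls, and the lower BMP6 value was still several times the higher control value. BMP6 libraries averaged 5.67 ± 1.41 TPM and control libraries 0.514 ± 0.412 TPM (SD, n = 2 per group), a ratio of 11. Within the same replicate number the ratio was 21.0 and 8.28. The log2 fold change was 2.15 (SE 0.25), with 2.21 and 2.09 within the numbered pairs. Because 1 TPM is added before the logarithm is taken, this scale understates the change of genes with such low control values. The deposited coverage of Grhl1 corresponds to 1017 and 1390 reads after BMP6 and to 49.4 and 172 reads in controls.

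Grhl3, the relative needed for closure of the neural tube and for the skin barrier, behaved differently (chromosome 4, 135269199 to 135300941, minus strand). It had 2.88 and 3.85 TPM after BMP6 and 2.22 and 2.16 TPM in controls. Both BMP6 libraries were above both controls, by a ratio of means of 1.54, and the log2 fold change of 0.44 (SE 0.17; 0.27 and 0.62 within pairs) stayed under the fold threshold. Grhl2, the family member that sustains Cdh1 and many claudins in epithelia (chromosome 15, 37233280 to 37363813), was listed at 0 in all 4 libraries. TPM takes transcript length into account, so the members can be set beside each other on this scale. Grhl1 made up 9.10% and 27.1% of the summed TPM of the 3 grainyhead genes in controls and 61.9% and 63.4% after BMP6. Grhl3 was thus the leading family member in both controls, and Grhl1 in both BMP6 libraries.

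Cldn9 encodes a claudin known from the inner ear, where it is needed for hearing (chromosome 17, 23901558 to 23903000, minus strand, a single exon). It had 3.22 and 4.28 TPM after BMP6 and 0.280 and 0.716 TPM in controls. The groups did not overlap, and control replicate 1 was the lowest of the 4 libraries, as it was for Grhl1. The means were 3.75 ± 0.754 and 0.498 ± 0.308 TPM (SD, n = 2 each), a ratio of 7.53, with 11.5 and 5.99 within pairs. The log2 fold change was 1.67 (SE 0.21; 1.72 and 1.62 within pairs). Leaving out BMP6 replicate 2 or control replicate 1 left 1 called member, Grhl1, since Cldn9 was then no longer past the adjusted p. Cldn6, the claudin of early embryonic epithelium, lies tail to tail with Cldn9 (chromosome 17, 23898223 to 23901420, plus strand), with 137 bases between the 2 genes. It was listed at 0 in all 4 libraries, so the reads in Cldn9 had no counterpart in its neighbour.

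Cldn4, a claudin of many tight epithelia (chromosome 5, 134973973 to 134975788, minus strand, a single exon), had 3.29 and 4.33 TPM after BMP6 and 0.812 and 1.78 TPM in controls. Both BMP6 values exceeded both control values, with means of 3.81 ± 0.734 and 1.29 ± 0.681 TPM (SD, n = 2 each) and a ratio of 2.94. The log2 fold change of 1.09 (SE 0.24; 1.24 and 0.94 within pairs) was just past the fold threshold, but Cldn4 was not past the adjusted p. It was the member just outside the call, and Cldn9 with 1.67 was the one just inside. With the replicate number as a block in the fit, which the shared batches allow, Cldn4 was called as well, making 3 members called, beside 36 of all tested entries (0.338%) called higher in that fit.

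Cldn12, a claudin found in many tissues, was the most abundant member and lay slightly lower after BMP6 (chromosome 5, 5555015 to 5564873, minus strand). It had 13.3 and 13.4 TPM after BMP6 and 14.3 and 14.3 TPM in controls, a log2 fold change of -0.09 (SE 0.11). Its libraries did not overlap either, now with BMP6 below the controls, with a ratio of means of 0.934. Most of the Cldn12 level, 76.6% to 84.2% per library, was assigned to the transcript ENSMUST00000060947.14 and 15.7% to 22.8% to ENSMUST00000115445.8. Among the 5 tested members, 4 had both BMP6 libraries above both controls and 1 had both below. The shares of all tested entries with these patterns were 17.4% and 10.8%. Nothing is read from the member counts beside these shares, since the members were selected on this same contrast. Grhl1 and Cldn9, with control means of 0.514 and 0.498 TPM, also passed the filter on mean TPM only through their BMP6 libraries.

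The remaining junction genes were close to the limit of what the libraries show. Epcam (chromosome 17, 87943407 to 87958557) had 0.188 and 0.0795 TPM after BMP6 and 0.0154 and 0 TPM in controls, which corresponds to 24.1, 9.74, 2.00 and 0 reads. Its BMP6 libraries were above the controls, at levels under 1 TPM throughout. Cdh1 (chromosome 8, 107329983 to 107396878) had 0.0144 and 0 TPM after BMP6 and 0 and 0.0147 TPM in controls, with 4.00 reads in each of 2 libraries and 0 in the others. Cldn1 (chromosome 16, 26175392 to 26190591), the claudin of the epidermal barrier, had 0.0482 TPM in BMP6 replicate 2, from 9.39 reads, and was listed at 0 in the other 3 libraries.

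In controls the order of mean levels was Cldn12, Grhl3, Cldn4, Grhl1 and Cldn9. Grhl1 and Cldn9 overlapped there, and Cldn4 replicate 1 (0.812 TPM) was next to Grhl1 replicate 2 (0.805 TPM). After BMP6 the order was Cldn12, Grhl1, Cldn4, Cldn9 and Grhl3, and the ranges of Cldn4, Cldn9 and Grhl3 overlapped. In every one of Grhl1, Cldn9, Cldn4 and Grhl3, replicate 2 had the higher TPM of the 2 BMP6 libraries. The share of all tested entries with that order was not counted, and same-numbered libraries deviated together across entries (correlation 0.563). Nothing about the members is read from it.

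**Figure D2:**
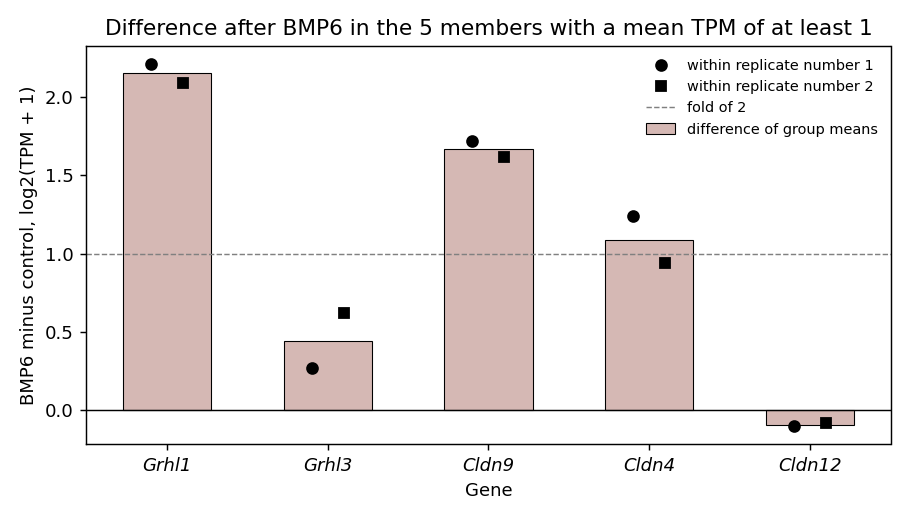
Difference between BMP6 and control on the log2(TPM + 1) scale for the 5 tested members. Bars show the difference of group means, circles and squares the difference within replicate numbers 1 and 2, and the dashed line a fold of 2. Grhl1 (2.15) and Cldn9 (1.67) lie above the line in both pairs, Cldn4 (1.09) straddles it, Grhl3 (0.44) stays below it and Cldn12 (-0.09) lies next to 0.

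The deposited annotation lists 2 transcripts of Grhl1. All of the Grhl1 level was assigned to ENSMUST00000085553.13, which has 16 exons and begins at 24622282. The other, ENSMUST00000020985.9, begins downstream at 24630748, and it was listed at 0 in all 4 libraries. Both contain the exon that is the fifth of the longer transcript (chr12:24632884-24632960, 77 bases, coding).

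That exon was nearly free of reads. Its coverage, the mean depth of aligned bases, was 0 and 1.79 in BMP6 replicates 1 and 2, whereas exon 4 had 27.2 and 45.7 and exon 6 had 32.1 and 50.1. The other internal exons of the transcript ranged from 19.5 to 36.0 in BMP6 replicate 1 and from 29.9 to 50.1 in BMP6 replicate 2. Exon 5 thus reached 0% and 4.84% of the median internal exon. At the median depth an exon of this length would hold bases worth 21.5 and 28.5 reads of 100 bases, against 0 and 1.38 found. In controls exon 5 had a coverage of 0 in both libraries, but the median depth there was worth only 1.02 and 4.17 reads, and exon 8 was also at 0 in control replicate 1, so a lack of exon 5 was not detectable in control replicate 1 and rests on few reads in control replicate 2.

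Such a gap was rare when counted per exon, but this exon was singled out among all exons of its transcript after its coverage was seen. Among internal exons of at least 50 bases, in transcripts with at least 8 exons and a median exon coverage of at least 10, 392 of 105018 (0.373%) in BMP6 replicate 1 and 378 of 105192 (0.359%) in BMP6 replicate 2 had under 5% of their transcript's median. All internal exons checked belonged to 8366 and 8344 transcripts, so the share of transcripts with such a gap can be larger than the share of exons. An exon held by several transcripts was counted in each. In Grhl3, whose transcript also has 16 exons and whose exons 7, 8 and 9 have the same lengths as those of Grhl1 (112, 95 and 159 bases), exon 5 has 74 bases and was covered in every library, with 24.1 and 22.7 after BMP6 and 8.62 and 9.23 in controls. The Grhl1 exon is given here with 24 bases of exon 4 before it and of exon 6 after it (plus strand, GRCm39, capitals mark exon 5), followed by the sequence formed when exon 4 meets exon 6 directly (capitals mark exon 6), because these are the sequences a reader would search for in the reads.
Grhl1 exon 5 in its neighbours: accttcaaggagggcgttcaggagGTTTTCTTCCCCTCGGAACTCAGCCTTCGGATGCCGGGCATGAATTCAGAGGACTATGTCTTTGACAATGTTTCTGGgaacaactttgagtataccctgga
Grhl1 exon 4 joined to exon 6: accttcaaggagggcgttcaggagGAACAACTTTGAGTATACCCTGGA

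The genome sequence has the usual AG before and GT after exon 5. Its 77 bases leave a remainder of 2 when divided by 3, so a transcript without it changes reading frame. The annotated frame runs for 618 codons, of which 223 lie wholly before exon 5. Read from the same start without exon 5, the frame meets a stop after 226 codons, in exon 6, with 10 exons following that exon. GENCODE M39, a later annotation than the one the authors used, lists 14 transcripts of Grhl1. Of these, 5 hold exon 5, 7 join exon 4 to exon 6, and 2 do neither. Of the 7 that join exon 4 to exon 6, 6 are labelled as targets of nonsense-mediated decay, the pathway that removes messages with an early stop, and 1 as protein-coding. The deposited files hold coverage per exon and no counts of reads across exon joins, so whether the reads of exons 4 and 6 are joined was not tested. Nor do coverage values tell how much GRHL1 protein was made.

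**Figure D3:**
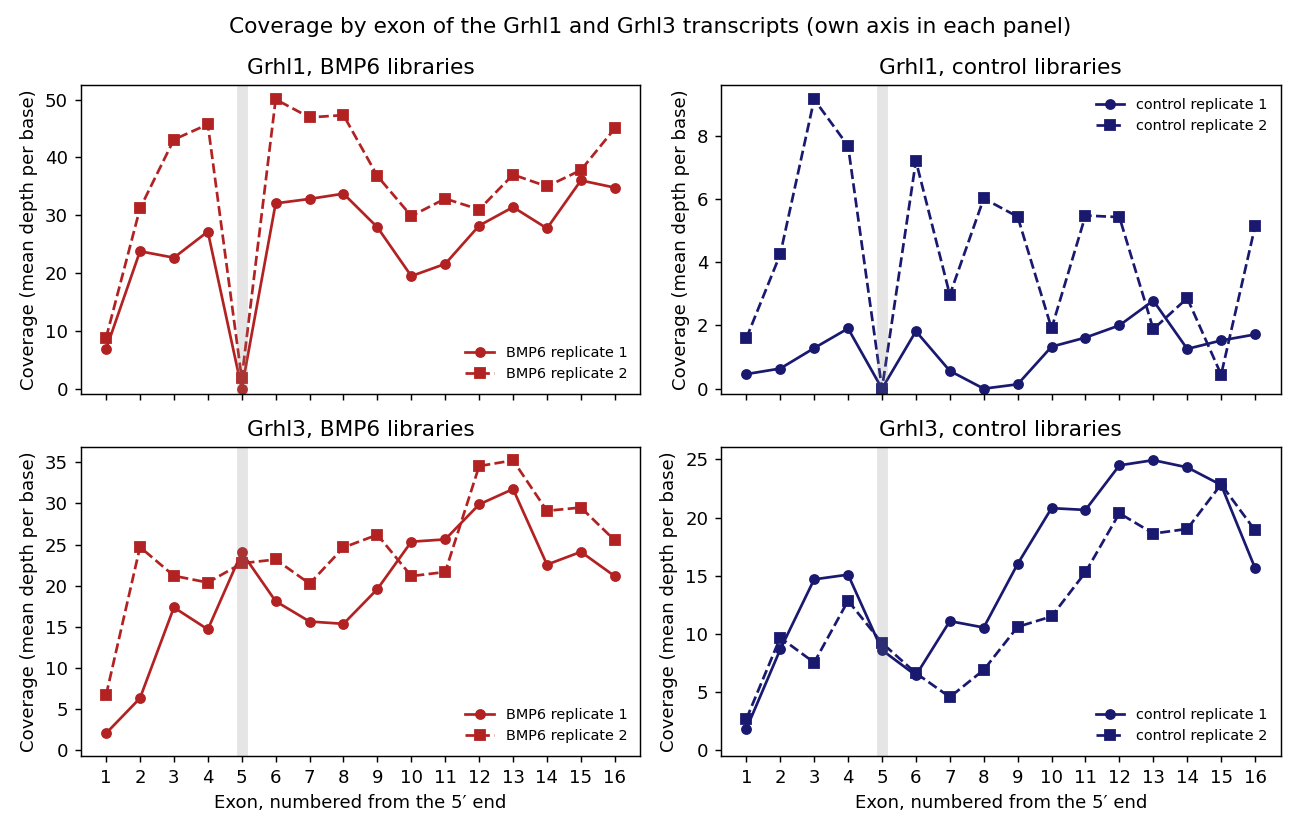
Coverage (mean depth of aligned bases) of each exon in the Grhl1 and Grhl3 transcripts, numbered from the 5′ end, with BMP6 libraries on the left, control libraries on the right, circles for replicate 1, squares for replicate 2 and an axis of its own in each panel. The grey bar marks exon 5, where Grhl1 falls to 0 and 1.79 in the BMP6 libraries while Grhl3 stays at 24.1 and 22.7.

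The first exon was also thinly covered in both genes. In Grhl1 exon 1 had 6.84 and 8.80 after BMP6, against 23.8 and 31.2 in exon 2. In Grhl3 exon 1 had 2.08 and 6.72 after BMP6 and 1.84 and 2.69 in controls, where the median internal exon had 21.1, 23.9, 15.6 and 11.1. The part of the library protocol in this was not tested.

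Sequences around the start sites were taken from RefSeq (GRCm38.p6 table, each window matched once to GRCm39), 250 bases before and 50 after the start, for 7 of the 10 genes. Grhl1 has 2 windows, of which the upstream one belongs to the transcript that carried the reads, whose deposited start lies 4 bases from the RefSeq start. The windows of Grhl1, Cldn4 and Grhl3 are printed in the direction of the gene as the tested members with a window that were higher in both BMP6 libraries. Capitals mark matches, on either strand, to GGCGCC, a GC-rich motif of BMP-activated SMAD proteins, and to CAGGTG, an E-box that the repressors of the Snail and Zeb families bind in epithelial genes.
Grhl1, chr12:24622036-24622335, plus strand: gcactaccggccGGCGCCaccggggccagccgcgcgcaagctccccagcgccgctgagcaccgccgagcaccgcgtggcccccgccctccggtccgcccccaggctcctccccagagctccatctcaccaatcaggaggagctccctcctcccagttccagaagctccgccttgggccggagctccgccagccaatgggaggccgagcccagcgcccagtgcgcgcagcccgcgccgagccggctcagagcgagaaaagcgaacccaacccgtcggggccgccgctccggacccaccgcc
Cldn4, chr5:134975739-134976038, minus strand: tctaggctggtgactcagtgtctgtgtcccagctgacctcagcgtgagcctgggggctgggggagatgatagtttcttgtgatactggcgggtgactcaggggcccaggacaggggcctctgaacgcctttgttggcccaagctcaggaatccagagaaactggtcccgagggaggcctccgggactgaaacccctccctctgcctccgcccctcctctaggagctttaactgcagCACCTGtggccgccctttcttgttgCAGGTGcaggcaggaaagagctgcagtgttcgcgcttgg
Grhl3, chr4:135300894-135301193, minus strand: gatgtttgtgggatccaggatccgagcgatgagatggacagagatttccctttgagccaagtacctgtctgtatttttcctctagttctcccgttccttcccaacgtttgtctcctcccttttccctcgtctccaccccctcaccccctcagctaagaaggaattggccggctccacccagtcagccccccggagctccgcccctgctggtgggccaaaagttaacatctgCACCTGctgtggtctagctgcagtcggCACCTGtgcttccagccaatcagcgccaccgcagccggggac

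With the start site counted as 1 and no position 0, the Grhl1 window holds GGCGCC at -238. The Cldn4 window holds CAGGTG at -14 on the strand opposite to the gene and at 12 on the gene's own strand, and the Grhl3 window holds it at -19 and 9 on the opposite strand. The 7 genes have 10 windows, some of which overlap. Of these windows, 1 held GGCGCC, 4 held CAGGTG (those of Grhl3, Cldn4, Cldn6 and Epcam), and 6 held the shorter SMAD motif CAGAC. The CAGAC of Grhl1 lies in the downstream window, which belongs to the transcript listed at 0, and the upstream window printed here holds none. The grainyhead motif AACNGGTT was found in 0 of the 10. In all 32851 windows of the table the shares with a match were 11.9% for GGCGCC, 20.2% for CAGGTG, 49.6% for CAGAC and 2.09% for AACNGGTT. CAGAC is short, is found in nearly as many windows as lack it, and is not marked in the sequences. These matches describe letters, and binding of a factor was not measured in these libraries. The study profiled SMAD binding in the same cells by another assay, and those data were not used here.

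No other gene of the epithelial and cadherin junction lists passed the main test, which had no block. Of 96 genes in 5 lists (other claudins, CP2 relatives of the grainyhead factors, other tight junction genes, adherens junction and desmosome genes, and known grainyhead targets), 39 were tested and 0 were past the adjusted p in limma. At an unadjusted p under 0.05, 1 was higher and 0 were lower, and voom on rebuilt reads without a block also had 0 past the adjusted p. With the replicate block, 1 was past it in limma (Marveld2, higher) and 2 were in voom (Marveld2, higher, and Nectin3, lower). Of the 39, 24 were higher and 15 lower. Their log2 fold changes had a median of 0.03, against 0.02 for all 10645 tested entries not left out by name.

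Of 24 other claudins, 4 were tested, 2 higher and 2 lower, with a median of 0.04. The highest in TPM were Cldnd1, which encodes a claudin-domain protein (log2 fold change 0.15, SE 0.11), Cldn25 (-0.07, SE 0.14) and Cldn2, a cation-selective pore (-0.14, SE 0.13), each with an adjusted p of 1 in limma. Cldn3 and Cldn7, which grainyhead factors are known to switch on in epithelia, stayed at or under 0.0701 and 0.181 TPM. Among the CP2 factors, which share the DNA-binding fold of the grainyhead proteins, Ubp1 (0.07, SE 0.19) and Tfcp2 (-0.03, SE 0.13) were expressed, and Tfcp2l1 stayed at or under 0.0667 TPM.

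Of 25 other tight junction genes, 16 were tested, 10 higher and 6 lower (median 0.04). Jam3, an adhesion molecule of the immunoglobulin family, had a log2 fold change of -0.12 (SE 0.08), Ybx3, a nucleic acid-binding protein of tight junctions, -0.17 (SE 0.47), and Patj, a polarity scaffold, 0.29 (SE 0.22). The gene with the unadjusted p under 0.05 was Marveld2, singled out after its values were seen, which encodes tricellulin, the protein at the points where 3 cells meet. It had 9.42 and 15.2 TPM after BMP6 and 4.86 and 7.42 TPM in controls. Each BMP6 library was above both controls, with a log2 fold change of 0.88 (SE 0.27; 0.83 and 0.94 within pairs). Its adjusted p was 1 in limma without the block and 0.00284 with it. With the block, 1.64% of all tested entries were past the adjusted p in either direction, and of the 39 list genes Marveld2 was the 1 that was.

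Of 27 adherens junction and desmosome genes, 14 were tested, 9 higher and 5 lower (median 0.02). The most abundant were Cdh15, which encodes M-cadherin of myogenic cells (log2 fold change -0.15, SE 0.16), and the cadherin partners Ctnnd1 (0.09, SE 0.09) and Ctnnb1 (0.02, SE 0.09). Cdh15 lay between 218 and 308 TPM in the 4 libraries, while Cdh1 did not exceed 0.0147 TPM. Of 19 known grainyhead targets, 3 were tested, 2 higher and 1 lower (median 0.12), and 16 stayed under 1 TPM in every library. The 3 were Lmo4, a LIM-domain cofactor (0.25, SE 0.21), Arhgef19, a guanine nucleotide exchange factor of wound closure (-0.18, SE 0.17), and Spint2, a protease inhibitor (0.12, SE 0.18).

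**Figure D4:**
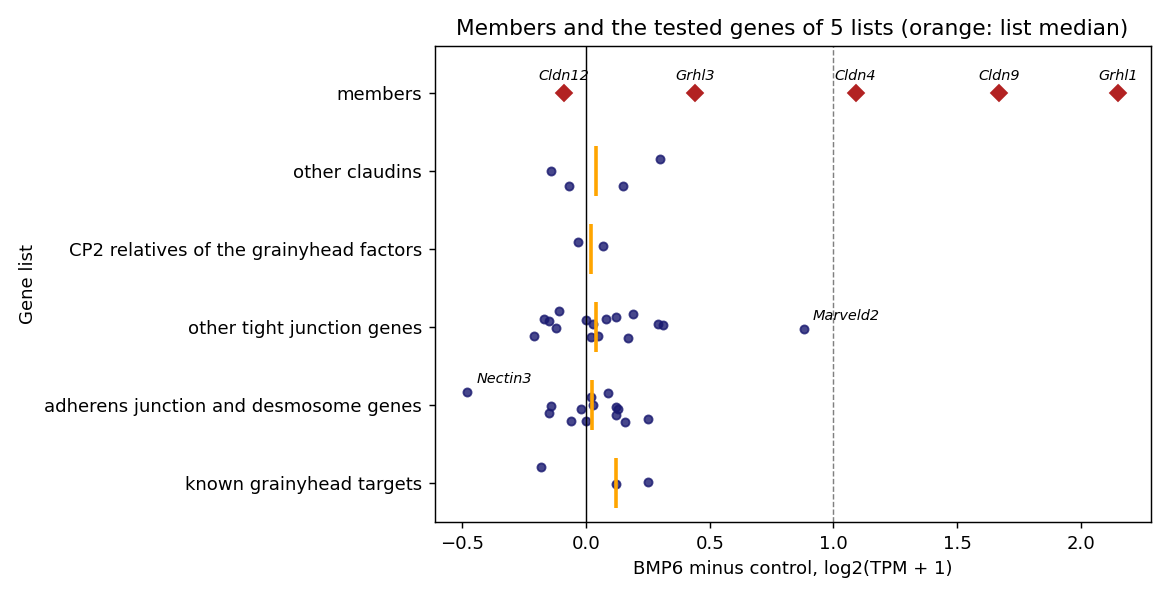
Difference between BMP6 and control on the log2(TPM + 1) scale for the 5 tested members (red diamonds) and for each tested gene of 5 lists (dark points, moved vertically at random for visibility), with the median of each list in orange and a dashed line at a fold of 2. The list medians lie between 0.02 and 0.12, and Marveld2 (0.88) is the list gene nearest to the line.

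Markers of other cell types were low or level beside these values. The summed TPM of 6 endothelial markers was 0.344 and 0.282 after BMP6 and 0.521 and 0.189 in controls, with Kdr and Tie1 at 0. For 5 Schwann cell markers the sum was 0.476 and 0.586 TPM after BMP6 and 0.841 and 0.835 TPM in controls. The 4 immune markers were led by Cd68, with at most 1.68 TPM, and their sum was 1.35 and 1.80 TPM after BMP6 and 1.44 TPM or less in controls. For 5 fibroblast markers, led by Col3a1, the summed TPM was 166 and 105 after BMP6 and 174 and 125 in controls. None of the tested markers was past the adjusted p or had an unadjusted p under 0.05 in limma, and with the replicate block Des, which encodes desmin of muscle, was lower (log2 fold change -0.24, adjusted p = 0.0312). None of the marker sums given here was higher in both BMP6 libraries than in both controls.

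The tested genes whose values over the 4 libraries ran closest to those of Grhl1, by the distance between log2(TPM + 1) values centred on each gene's mean, were Prr9 (distance 0.24), Smad7 (0.27), Atoh8 (0.43), Klf10 (0.44) and Pwwp2b (0.44). Smad7 encodes an inhibitory SMAD, and its log2 fold change was 2.01. Klf10 and Atoh8 encode transcription factors and were far more abundant than Grhl1, with means of 179 and 48.1 TPM after BMP6. The closest to Cldn9 were Id4 (0.09), Skil (0.11), Pwwp2b (0.13), Hbegf (0.16) and Arc (0.17). Id4 encodes an inhibitor of DNA binding, with means of 4.42 and 0.814 TPM after BMP6 and in controls, and Skil encodes a SMAD co-repressor. These distances rest on 4 libraries and on the contrast by which the members were chosen.

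Some of these genes overlap others on the opposite strand in GENCODE M39, and the libraries were unstranded, so reads cannot be assigned to a strand. This applies to Cldn12 (Gm30325), Grhl3 (Gm30888 and Gm69137), Grhl2, Cldn1 and Epcam. Grhl1, Cldn4, Cldn6, Cldn9 and Cdh1 overlap no annotated gene. No stretch of 100 bases in the transcripts of Grhl1, Grhl3 or the claudins is shared with another gene.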

How the data were processed

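The authors aligned paired reads of 100 bases from amplified, unstranded polyA libraries with STAR 2.7.11a to GRCm39 (GENCODE M32), sorted them with SAMtools 1.17 and quantified a merged annotation with StringTie 2.2.1. The authors deposited TPM and FPKM per gene in joined tables. Coverage, the signal deposited per transcript and exon, is the mean depth of aligned bases, unscaled to library size. All columns belong to 1 of the 4 libraries.

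Here, reads were rebuilt as coverage times length over 100 bases. They are not independent molecules, and low levels carry counting error beside the spread shown. The comparison used limma 3.58.1 (R 4.3.3; trend, two-sided, no block) on log2(TPM + 1) over the 13128 entries whose TPM averaged 1 or more. As in the study, 2483 tested entries without a usable name (Gm, Mir, Rik, os, -ps) stayed in the fit but out of the calls. The authors' own test used read counts that were not used here. Steps were tested on simulated data. Same-numbered libraries share a batch in the labels, and their deviations from the group means correlated at 0.563 across entries. In limma each entry's spread is moved toward a common trend fitted over all tested entries before p-values and SEs are formed. An SE given here is therefore not a gene's own replicate error. For Cldn12 the replicate SD was 0.01 and the SE 0.11. With 2 libraries per group, p-values and SEs reflect the spread among these libraries and no others.

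Members, gene lists and motifs were chosen with earlier results of these data known. Named genes are all members, list genes past the adjusted p and the 3 of each list with the highest mean TPM, and for likeness the 5 entries nearest to each called member. Exon coverage and the list genes Marveld2, Nectin3, Cldn3, Cldn7, Krt5, Krt15, Kdr, Tie1, Pax7 and Des were singled out after their values were seen. Alternatives covered the block, pseudocount, filter, trend, quantile normalization, FPKM, voom on rebuilt reads, an adjusted p under 0.05 and each library left out. Files of covered reference transcripts were not used.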

Additional observations from a re-analysis of the deposited data

How the results depend on the processing

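The number of members called, 2, was 0 with an adjusted p under 0.05, with a pseudocount of 0.1 or 5, without a filter, with entries averaging 5 TPM or more (where only Cldn12 was tested), without a mean-variance trend and in voom without a block. It was 2 with quantile normalization and FPKM. With the replicate block it was 3, in limma and in voom. Leaving out each library in turn gave 1 to 2. The number of all entries called, 24, became 11 with an adjusted p under 0.05, 37 with the replicate block, 15 with a pseudocount of 5, 1 without a filter, 15 with entries averaging 5 TPM or more, 12 without the trend and 61 in voom with the replicate block, and ranged from 18 to 34 with each library left out. The list genes past the adjusted p, 0, became 1 with the replicate block (Marveld2) and 2 in voom with the replicate block, where Nectin3 was lower. The log2 fold change of the Grhl1 transcript, 2.15, was 1.69 with coverage scaled to each library, a smaller unit beside the same pseudocount of 1, and 1.87 to 2.43 with each library left out. The direction of the fold change in the tested members held under every alternative in which they could be fitted: Grhl1 ranged from 0.95 to 3.69, Cldn9 from 0.67 to 3.01, Cldn4 from 0.49 to 1.63, Grhl3 from 0.22 to 0.60 and Cldn12 from -0.12 to -0.07. The coverage of Grhl1 exon 5 in BMP6 replicate 2 was 3.74% of the mean of exons 4 and 6, a reference chosen after seeing the data, in place of 4.84%. The cause of these differences was not tested. With so low a control level, the size of the Grhl1 and Cldn9 change depends on the pseudocount more than on the library left out.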
